A study of Mus musculus with 6 samples.

Results

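Nuclear receptors are transcription factors that share a zinc finger DNA binding domain and, in most members, a pocket for a small lipid-soluble ligand such as a steroid, a thyroid hormone, a retinoid, an oxysterol or heme. Steroid receptors wait in a complex with heat shock chaperones until hormone arrives. Many others sit on DNA as partners of the retinoid X receptors (RXRs), where corepressors are exchanged for coactivators when ligand binds. In fibroblasts, receptors of this family are known for the anti-inflammatory response to glucocorticoids, for retinoic acid signalling in the embryo and for a limb of the circadian clock.

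The RNA of 43 nuclear receptor genes was examined in mouse embryonic fibroblasts (MEFs). The genes were taken from a list, without Rarb and Pparg, and the value of a gene is that of its highest RefSeq transcript. They were 43 of 25043 genes of the deposited table and held 98 of its 42361 RefSeq transcripts. The cells were primary MEFs from wild-type (WT) embryos or from Anp32e-/- embryos, which lack the histone chaperone ANP32E, grown without further treatment in serum-containing medium and taken below passage 8. Total RNA was sequenced in 3 WT libraries and 3 Anp32e-/- libraries, and the sources used here do not say whether the 3 libraries of a genotype came from separate embryos.

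The quantity available for each transcript was the authors' mean normalized count over all 6 libraries, that is, reads divided by the size factor of their library and averaged over both genotypes. The levels below therefore describe the MEFs of the study as a whole, and no difference between WT and Anp32e-/- MEFs was computed. Genes were ranked by level after division by transcript length, as mean normalized count per kilobase (per kb). Shares past a minimum, promoter classes by level and comparisons stated in means used the undivided mean. In bulk RNA, fewer cells that use a receptor and less RNA per cell cannot be told apart.

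The cells carried the RNA of fibroblasts, together with that of mesothelial markers. Of 13 fibroblast markers 12 had a mean of at least 10, from S100a4 at 174860 per kb down to Lum, at 0.544 per kb, as the exception. Of 77 measured markers of other cell types 25 reached a mean of 10, among them all 7 mesothelial markers measured (Krt19, Upk1b, Msln, Upk3b, Wt1, Lrrn4 and Bnc1, with means from 24.4 to 7400.1), the epithelial Krt18, Cdh1 and Krt8, the endothelial Kdr and Tek, the macrophage genes Cd68, Cd14 and Csf1r, the muscle genes Acta1 and Des, the adipocyte genes Fabp4 and Cidec, the neural genes Nes and Tubb3, and Cdh17, Star, Apob and Nanog. The median level was 1183 per kb over the fibroblast markers and 171 per kb over the mesothelial markers. Krt19 (4696 per kb), Upk1b, Msln, Upk3b and Wt1 each lay above the fibroblast markers Pdgfra (91.9 per kb) and Dcn (81.8 per kb). Lrrn4 and Bnc1 lay below both. The mean of Anp32e itself was 2189.9 over both genotypes together, so it does not check the deletion. Library totals were not part of the table, and the 6 size factors, recovered as described below, ranged from 0.909 to 1.13.

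Most of the receptor family was present at some level. A mean of at least 10 was reached by 33 of 43 receptors, or 76.7%, beside 56.9% of all genes and 63.0% of protein-coding genes. At higher levels the family was not set apart in this way: 21 receptors, or 48.8%, reached a mean of 100, beside 46.0% of all genes and 53.1% of coding genes, and 13 receptors, or 30.2%, reached 1000, beside 28.8% and 34.3%. The median level of the receptors was 28.5 per kb, and that of all genes was 27.9 per kb.

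**Figure D1:**
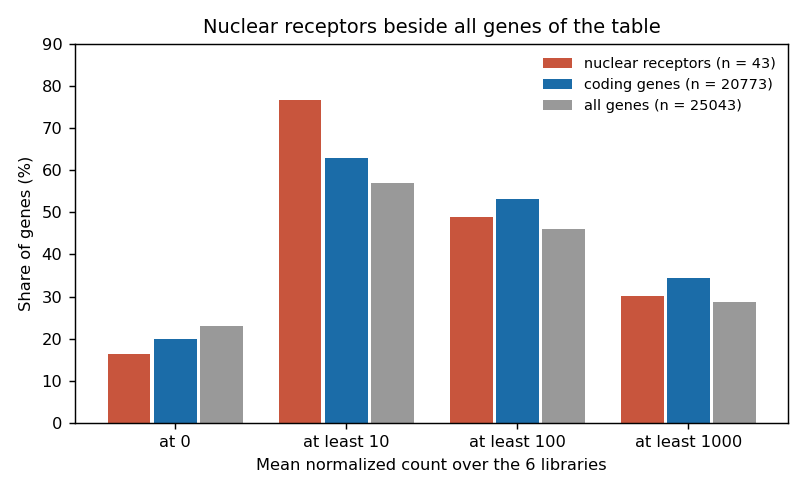
Share of genes (vertical axis, %) whose mean normalized count over 6 libraries was 0 or at least 10, 100 or 1000 (horizontal axis), for 43 nuclear receptors, 20773 coding genes and all 25043 genes. The receptor bar stands highest at the minimum of 10 (76.7% against 63.0% and 56.9%) and between the other bars at 100 and 1000.

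The 10 receptors with the highest level per kb were, in falling order, Nr2f6, Rarg, Nr1h2, Rxrb, Esrra, Rxra, Thra, Rara, Nr3c1 and Nr1d1. With the length linked to its own representative transcript, 1952 bases, Rxra came first at 2718 per kb, and the same 10 genes led. With the longest linked lengths, which are used throughout, they ran from 2188 down to 493 per kb, and all lay at or above the 75.9th percentile of the genes of the table. The NR1 subfamily (thyroid hormone, retinoic acid, fatty acid, oxysterol, bile acid, vitamin D and heme receptors) held 42.9% of the summed level per kb of the family. The NR2 subfamily (RXRs and orphan receptors, which have no settled ligand) held 39.9%, the NR3 subfamily (steroid and oestrogen-related receptors) 13.6% and the NR4 subfamily 2.96%, while NR5, NR6 and NR0 each held less than 0.5%. The order of NR1 and NR2 turned with the lengths of the representatives, to 38.1% for NR1 and 46.4% for NR2.

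**Figure D2:**
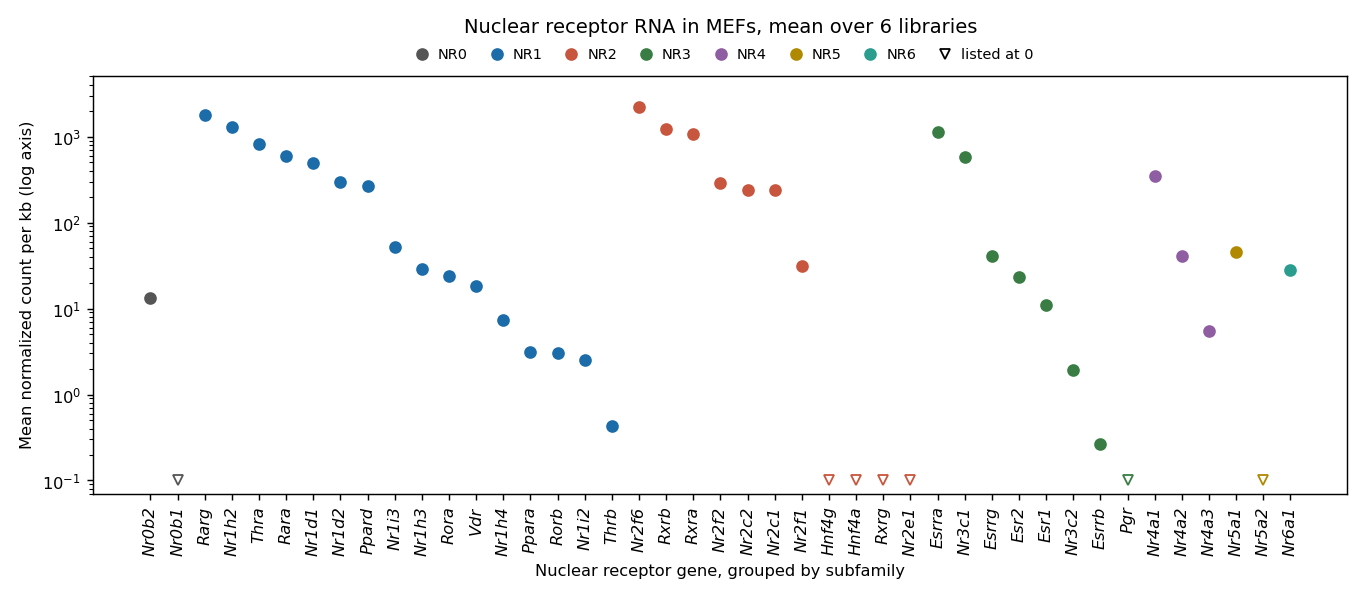
Mean normalized count per kb (vertical axis, log scale) of each of the 43 receptors, grouped and coloured by subfamily and ordered by level within it. Each point is the mean over 6 libraries with no error bar, because the table gives a single mean. The points run from 2188 per kb for Nr2f6 to 0.265 for Esrrb, and the 7 open triangles at the base are the genes listed at 0.

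The retinoic acid receptors were the most abundant group of NR1. Rarg had a mean of 5323 (1803 per kb) and Rara a mean of 1986 (587 per kb). Both bind all-trans retinoic acid and pair with an RXR. The transcripts of Rarg ranged from 5047 to 5323 and those of Rara from 1730.1 to 1986, since transcripts of a gene that share exons share most of their reads.

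The thyroid hormone receptor genes, a pair of close relatives, stood far apart, with Thrb the lowest gene of NR1. Thra had a mean of 2024 (826 per kb) and Thrb a mean of 2.69 (0.435 per kb). Thrb was seen in 16 reads in all. The 2 transcripts of Thra had means of 1529 and 2024, the largest gap between transcripts among the abundant receptors, and the end of Thra (chr11:98740776-98769006, GRCm38) overlaps that of Nr1d1 (chr11:98767932-98775377) on the opposite strand. The shared exonic bases, 263 in number, were 5.70% of the exons of Thra and 8.55% of those of Nr1d1.

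The Rev-erb genes, which encode heme-binding repressors of the clock gene Arntl, were both abundant. Nr1d1 had a mean of 1343 (493 per kb) and Nr1d2 a mean of 1365 (293 per kb). The ROR genes, whose activating products bind the same DNA elements, stood far lower per kb. Rora had a mean of 257 (23.6 per kb) and Rorb a mean of 28.0 (3.01 per kb), with the lower transcript of Rorb at 24.9. The transcripts of Rora spanned from 17.3 to 257, a 14.9-fold range and the widest of any receptor, so the level of Rora depends on which transcript stands for it.

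Among the lipid sensors, the ubiquitous member of each pair was the higher. Nr1h2, encoding LXRβ, an oxysterol receptor, had a mean of 2559 (1280.3 per kb), and Nr1h3, encoding LXRα, had a mean of 55.8 (28.5 per kb). Ppard, a fatty acid receptor, had a mean of 871 (266 per kb), and Ppara had a mean of 10.7 (3.14 per kb). Their other transcripts lay within 1.02-fold of these values. The bile acid receptor gene Nr1h4 had a mean of 14.98 (7.44 per kb; its lowest transcript 12.7), and Vdr, encoding the vitamin D receptor, a mean of 79.6 (18.2 per kb).

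The xenobiotic receptor genes Nr1i2 (PXR) and Nr1i3 (CAR), known for drug metabolism in liver, had means of 6.35 (2.49 per kb) and 73.5 (52.0 per kb). Nr1i3 lies at a shared locus, chr1:171213934-171218845. Over the exons of all its annotated transcripts, 4414 bases, 74.9% overlap exons of the opposite-strand gene Tomm40l, whose own mean was 2178. The transcript counted has a linked length of 1359 bases, less than the 3304 shared bases. The shared part of that transcript alone was not computed. Whether the counting used strand is not settled by the sources used here. How many of the reads assigned to Nr1i3 came from Tomm40l was not tested. Its other distinct transcript value was 69.8.

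In NR2, 2 of the 3 RXR genes were abundant. Rxra had a mean of 5305 (1082 per kb) and Rxrb a mean of 3231 (1229.8 per kb), while Rxrg was listed at 0. The transcripts of Rxra differed by less than 0.1% (5303 to 5305) and those of Rxrb lay between 3072 and 3231. The level per kb of Rxra moved above that of Rxrb with the shorter length given above.

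The COUP-TF genes, which encode orphan receptors known mainly as repressors and as regulators of mesenchyme and vessels, were spread over a wide range. Nr2f6 had a mean of 4854 (2188 per kb), the highest level per kb of the family except for Rxra at its shorter length. Nr2f2 had a mean of 1218 (288 per kb) and Nr2f1 a mean of 99.8 (31.1 per kb), with lowest transcripts at 1123 and 91.6. The exons of all annotated Nr2f6 transcripts at chr8:71374118-71381967 overlap the opposite-strand gene Ocel1 over 54.4% of their bases. The mean of Ocel1 was 233 (107 per kb), far below the level of Nr2f6.

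The testicular receptor genes Nr2c1 and Nr2c2, orphans that repress through direct repeats, had almost the same level per kb, 237 and 238, from means of 885 and 1817. The other transcript of Nr2c2 was within 1.01-fold. The exons of all annotated Nr2c2 transcripts overlap those of the opposite-strand gene Mrps25 over 30.7% of their bases. Mrps25 had a mean of 3467. Hnf4a and Hnf4g, regulators of liver and gut epithelium, and Nr2e1, a regulator of neural stem cells, were listed at 0. Of 8 hepatocyte markers only Apob reached a mean of 10, at 10.7.

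Promoters are shown for 4 NR2 genes, because the 2 with the highest mean and a paralog listed at 0 can be read beside a gene that goes against the pattern. The windows run from 250 bases before to 50 after a RefSeq start (GRCm38.p6), 5′ to 3′ on the strand of the gene, and each CG dinucleotide is in capitals.
Rxra, chr2:27676951-27677250, plus strand: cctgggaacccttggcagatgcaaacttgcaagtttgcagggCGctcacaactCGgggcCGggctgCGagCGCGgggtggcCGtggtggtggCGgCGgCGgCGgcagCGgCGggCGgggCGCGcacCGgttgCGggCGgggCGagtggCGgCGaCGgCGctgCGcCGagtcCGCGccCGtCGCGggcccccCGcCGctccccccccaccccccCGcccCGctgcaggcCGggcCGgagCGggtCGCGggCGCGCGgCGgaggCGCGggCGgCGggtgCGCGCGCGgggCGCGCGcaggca
Nr2f6, chr8:71381903-71382202, minus strand: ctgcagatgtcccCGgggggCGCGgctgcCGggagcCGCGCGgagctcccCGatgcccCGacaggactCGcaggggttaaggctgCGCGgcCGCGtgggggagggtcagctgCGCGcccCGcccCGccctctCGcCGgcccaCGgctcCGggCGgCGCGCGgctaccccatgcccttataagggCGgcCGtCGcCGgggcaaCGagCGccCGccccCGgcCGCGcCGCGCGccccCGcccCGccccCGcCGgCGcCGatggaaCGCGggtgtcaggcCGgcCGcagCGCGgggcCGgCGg
Rxrg, chr1:167598112-167598411, plus strand: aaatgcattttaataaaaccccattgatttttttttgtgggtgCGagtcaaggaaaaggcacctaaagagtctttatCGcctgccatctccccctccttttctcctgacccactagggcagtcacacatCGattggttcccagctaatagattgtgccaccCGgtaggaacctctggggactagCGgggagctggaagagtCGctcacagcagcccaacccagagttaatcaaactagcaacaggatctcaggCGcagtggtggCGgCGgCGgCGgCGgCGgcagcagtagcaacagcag
Nr2f2, chr7:70366697-70366996, minus strand: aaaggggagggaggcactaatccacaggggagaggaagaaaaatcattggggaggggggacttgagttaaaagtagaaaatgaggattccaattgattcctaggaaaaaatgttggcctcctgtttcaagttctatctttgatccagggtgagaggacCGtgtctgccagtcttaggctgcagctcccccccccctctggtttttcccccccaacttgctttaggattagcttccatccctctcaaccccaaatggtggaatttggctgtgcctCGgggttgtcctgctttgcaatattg

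The window of Rxra held 55 CG dinucleotides and that of Nr2f6 held 53, whereas that of Rxrg held 13. Nr2f2, at a mean of 1218, held only 2. A window belongs to the first RefSeq start listed for the gene and was not matched to the transcript that gives its mean. For Nr2f2, 1 window was listed for 2 transcripts. Windows were found for 39 of 43 receptors. Over these the median CG count was 17, and over all 27025 promoters it was 7.

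CG content went with level as a description. All promoters were not split by level, so whether this is particular to receptors was not tested. The median ratio of observed to expected CG was 0.816 in the 18 receptors with a mean of at least 100, 0.542 in the 12 between 10 and 100, and 0.427 in the 9 below 10. Exceptions stood on both sides: Thrb, at a mean of 2.69, held 37 CG dinucleotides, and Rarg, at 5323, held 12. GGGCGG, the core of the GC box bound by SP factors, was present on either strand in 53.8% of receptor windows and 35.9% of all windows. AGGTCA, the hexamer that many nuclear receptors bind, was present in 15.4% of receptor windows and 16% of all windows. CACGTG, the E-box bound by CLOCK and its partners, was present in 10.3% and 7.24%, TATAAA in 15.4% and 14.2%, and CCAAT in 38.5% and 37.9%. No CACGTG stood in the windows of Nr1d1 and Nr1d2. Receptor windows were compared with all windows whatever their CG content. These are matches of letters within 300-base windows and not binding sites.

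**Figure D3:**
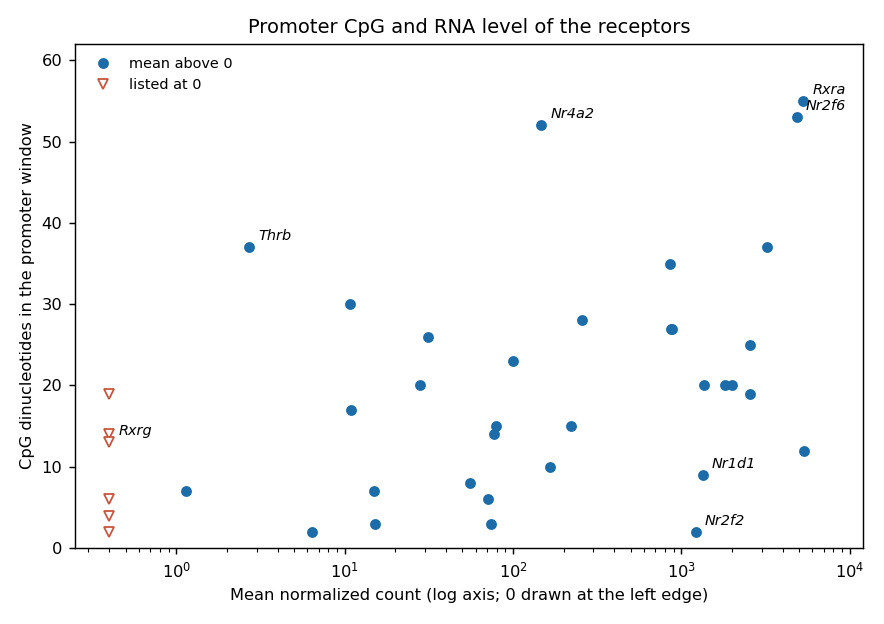
CG dinucleotides in the promoter window (vertical axis) against the mean normalized count over 6 libraries (horizontal axis, log scale) for the 39 receptors with a window. Each point is a gene, and open triangles at the left edge are genes listed at 0. Rxra and Nr2f6 sit at the top right with 55 and 53, Nr2f2 at the bottom right with 2, and Thrb at the left with 37.

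Among the steroid receptors of NR3, the glucocorticoid receptor gene Nr3c1 stood alone. It had a mean of 3671 (580 per kb), with transcripts from 3617 to 3671. Nr3c2, encoding the mineralocorticoid receptor, had a mean of 10.9 (1.92 per kb), and Pgr, the progesterone receptor gene, was listed at 0. The oestrogen receptor genes were low and close to each other in mean, with Esr1 at 70.5 (11.1 per kb) and Esr2 at 77.1 (23.1 per kb). With the lengths of their own representatives the order per kb turned, to 27.0 for Esr1 and 23.5 for Esr2. The transcripts of Esr1 ranged from 19.7 to 70.5, a 3.58-fold range, and the lowest of Esr2 was 76.0.

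The oestrogen-related receptors are orphans that control mitochondrial genes together with PGC-1 coactivators. Esrra had a mean of 2563 (1143 per kb), Esrrg a mean of 221 (41.1 per kb; lowest transcript 206) and Esrrb a mean of 1.14 (0.265 per kb; lowest transcript 0.970). Esrrb is a factor of pluripotent cells, and of the 7 pluripotency markers only Nanog, at 11.5, reached a mean of 10.

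The NR4A genes are immediate early genes whose orphan products act without a known hormone. Nr4a1 had a mean of 856 (346 per kb), Nr4a2 a mean of 147 (41.2 per kb; lowest transcript 143) and Nr4a3 a mean of 31.4 (5.49 per kb; lowest transcript 13.0). In NR5, Nr5a1, encoding the steroidogenic factor SF-1, had a mean of 135 (45.2 per kb; lowest transcript 134), and Nr5a2, a liver and pluripotency factor, was listed at 0. Of 6 steroidogenic markers only Star, the cholesterol carrier of mitochondria, reached a mean of 10, at 98.4. Nr6a1, a germ cell and embryonic orphan whose gene lies 8.83 kb from Nr5a1 on chromosome 2, had a mean of 165 (27.8 per kb; lowest transcript 158).

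The NR0 genes encode receptors without a DNA binding domain that bind and repress other receptors. Nr0b2, encoding SHP, had a mean of 15.1 (13.3 per kb), and Nr0b1, encoding DAX1, was listed at 0. In all, 7 receptors were listed at 0: Nr0b1, Hnf4a, Hnf4g, Rxrg, Nr2e1, Pgr and Nr5a2. This was 16.3% of the receptors, beside 23.0% of all genes. A mean of 0 meant no read in any library, which allows a mean of up to 0.550, the value of 3 reads. Besides these, Nr1i2, Thrb and Esrrb had means above 0 but under 10.

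For the 15 receptors with a mean above 0 and under 100, the whole read counts of the 6 libraries could be recovered from the mean, because a single read adds a fixed amount that differs between libraries. Exactly 1 set of counts gave each mean. The counts were not tied to WT or Anp32e-/- MEFs, because the authors' comparison was not used. Each library is given a letter from a to f in order of falling size factor. No groups by genotype were formed. Values are normalized counts per library, and the number of reads shows the depth behind them.

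Several low receptors were steady across the libraries. Nr1i3 ranged from 69.1 to 86.5 (median 70.2, 444 reads in all), Rorb from 21.9 to 35.0 (median 28.0, 169 reads) and Nr2f1 from 80.0 to 113 (median 103, 604 reads). Vdr ranged from 68.9 to 96.1 (median 76.6, 480 reads) and Esr2 from 52.6 to 91.3 (median 79.2, 465 reads). In each of these 5 genes the highest library was less than 2 times the lowest.

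Others differed widely between libraries, so that their means describe no single library well. Nr0b2 had no read in 3 libraries and 27, 28 and 31 reads in the others (lowest 0, median 13.1, highest 34.1). Nr1h4 ranged from 0 to 32.1 (median 12.2, 87 reads) and Ppara from 1.07 to 23.8 (median 10.3, 67 reads). The mean of Ppara fell below 10 without library a, b or d, to 8.09 at the lowest. Esr1, at 434 reads, ranged from 35.3 to 99.9 with a median of 70.8 and no library between 48.7 and 92.9. The mean of 70.5 for Esr1 therefore lies in a gap that no library occupied.

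Nr1h3 ranged from 27.8 to 73.4 (median 60.5, 341 reads) and Nr4a3 from 15.4 to 54.8 (median 27.0, 195 reads). Nr3c2 ranged from 0 to 19.8 (median 13.7, 63 reads), with at most 2 reads in libraries a and b and at least 12 in each of the others. Its mean fell below 10 without library d (9.80) or f (9.08). Nr1i2 ranged from 0 to 11.8 (median 7.23, 37 reads). At the lowest depth, Thrb had 0 to 5 reads per library and the 7 reads of Esrrb fell in 2 libraries, and counts this small cannot rank libraries. Without library d the mean of Esrrb was 0.354.

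**Figure D4:**
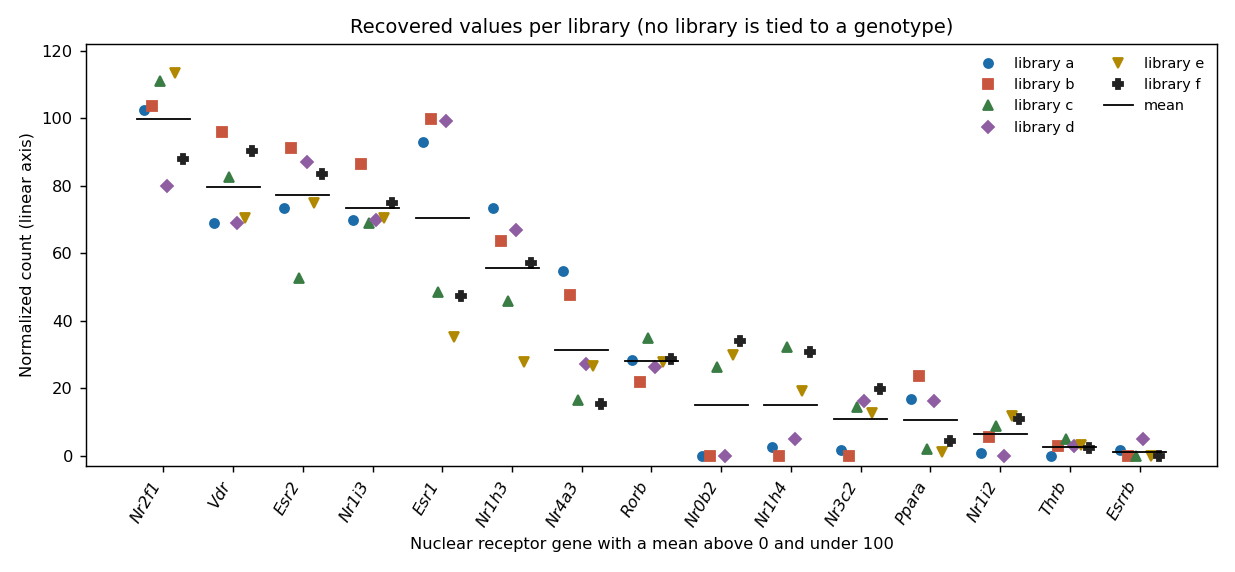
Normalized counts (vertical axis, linear) in each of the 6 libraries, shown by symbol and colour, for the 15 receptors with a mean above 0 and under 100 (horizontal axis, by falling mean). Horizontal bars mark the mean, and the libraries are not tied to a genotype. Nr1i3 and Rorb cluster around their bars, whereas the Esr1 points stand at 35.3 to 48.7 or at 92.9 to 99.9 and 3 of the Nr0b2 points stand at 0.

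The partners that receptors need were broadly present. Of 34 coregulators 33 had a mean of at least 10, beside 56.9% of all genes and 63.0% of coding genes. All of those 33 also reached 50. The exception was Ppargc1a, the PGC-1α coactivator gene, at 8.81. The highest levels per kb were those of Prmt1 (4257), Carm1 (1579.8) and Kat2a (981) among coactivators, of Med24 (1051), Med14 (644) and Med12 (432) among Mediator subunits, and of Hdac3 (3957), Hdac2 (3316) and Hdac1 (1967) among corepressors. All 10 chaperones of the steroid receptor complex were present, with a median of 7433 per kb and the top values in Hspa8 (70066), Hsp90ab1 (62497) and Stip1 (17261).

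Genes that make, carry or break down ligands were uneven. A mean of 10 was reached by 56.9% of all genes and 63.0% of coding genes. The counts below for oxysterols and vitamin D and for thyroid hormone lay near those shares. For retinoids 9 of 12 genes reached a mean of 10, led by the binding proteins Crabp1 (5268 per kb) and Crabp2 (2489 per kb) and by Dhrs3 (467 per kb), with Cyp26a1, Cyp26c1 and the RBP receptor gene Stra6 below. For heme 5 of 5 reached it, led by Hmox1 (6141 per kb), and for fatty acid carriage 5 of 6, led by Fabp5 (8207 per kb), with Fabp1 listed at 0. Of the 10 measured genes listed under steroid ligand enzymes 4 reached it, Hsd17b4, Srd5a3, H6pd and Srd5a1. Hsd11b1, which regenerates active glucocorticoid, had a mean of 7.88. Hsd11b2, Hsd17b1, Hsd17b2 and Sult1e1 were also under 10, and Cyp19a1, the aromatase gene, was listed at 0. For oxysterols and vitamin D 5 of 8 reached it, with no mean above 40.1, and for thyroid hormone uptake and deiodination 4 of 6, led by the transporter gene Slc16a10 (98.8 per kb), with Dio1 and Slco1c1 at 0.

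Genes commonly listed as targets were counted in the same way, which gives their levels and not their control by a receptor. The shares past the same minimum were 56.9% of all genes and 63.0% of coding genes. The counts for LXR targets and thyroid hormone receptor targets lay near them. All 8 glucocorticoid receptor targets reached a mean of 10, with Zbtb16 lowest at 10.6. They were led by Sgk1 (4453 per kb), Dusp1 (1893 per kb) and Mt2 (1250.7 per kb). The count was 13 of 15 for clock genes, with Tef, Bhlhe40 and Nfil3 on top and Npas2 and Hlf below, 7 of 9 for PPAR targets, led by Plin2 (5291 per kb), 5 of 8 for LXR targets, led by Lpcat3 (1240.2 per kb), 5 of 7 for retinoic acid receptor targets and 3 of 5 for thyroid hormone receptor targets, led by Me1 (899 per kb). It was 1 of 7 for targets of FXR, PXR and CAR, the sole gene being Nr0b2, itself a receptor of the list. It was 1 of 4 for vitamin D receptor targets (Spp1, 19504 per kb), with Cyp24a1 at a mean of 0.183, and 1 of 4 for oestrogen receptor targets (Ctsd, 21629 per kb), with Pgr and Tff1 at 0. Spp1 and Ctsd are also expressed in many cells without these hormones.

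**Figure D5:**
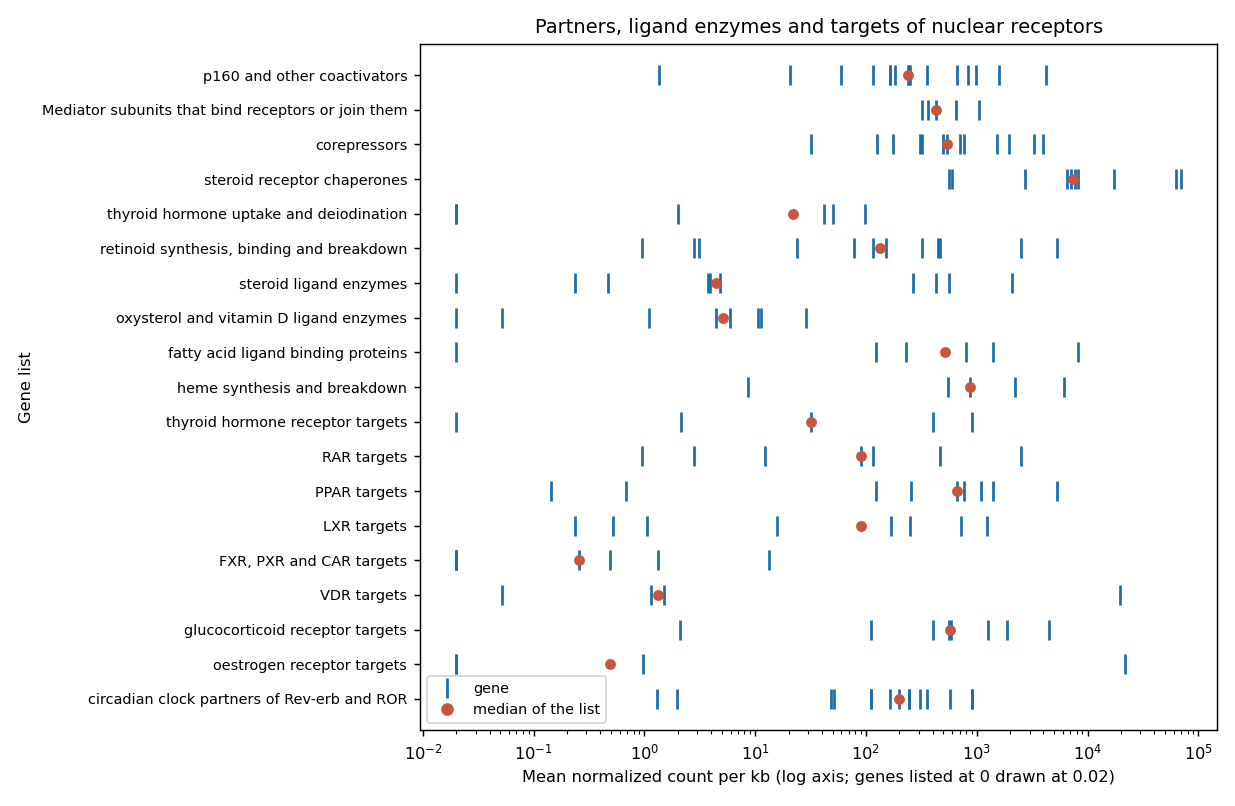
Mean normalized count per kb over 6 libraries (horizontal axis, log scale) of each gene (vertical ticks) in 19 lists of receptor partners, ligand genes and targets (vertical axis), with the list median as a red point. Genes listed at 0 are drawn at 0.02. Chaperones lie furthest to the right, with a median of 7433, and the FXR, PXR and CAR targets furthest to the left, with a median of 0.256.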

How the data were processed

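RNA-seq of 3 WT and 3 Anp32e-/- MEF samples was analysed from a single deposited table. Per the labels and the study's methods, the authors aligned reads from stranded total RNA libraries to mm10 with STAR, counted them per RefSeq transcript with featureCounts and normalized the counts with DESeq2. The deposited signal is the mean normalized count of a transcript over all 6 libraries. The 5 other columns hold the authors' own comparison of the genotypes (fold changes, their errors, statistics and p-values) and were not used, so no test was made. The methods name default counting settings, which ignore strand and drop reads shared between features. Near-equal values of transcripts that share exons go against the latter, so the strand setting is unsettled.

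Transcripts were matched to gene symbols (42203 of 42361). Lengths were those of the longest GENCODE M21 (GRCm38) transcript linked to the gene, found for 96.7% of genes. For means under 100, read counts per library were solved from the means. The steps were the 6 lowest values of the table, worth 0.147 to 0.183 per read, and all 3623 distinct means under 10 had exactly 1 solution. The solver was checked on simulated data, where 108 of 111 means under 100 had a single solution, always the simulated counts. Libraries were not assigned to genotypes. Counts cover sampling of reads only. Exon overlaps were taken over the exons of all GENCODE transcripts of a gene, not of the counted transcript alone. Promoters were RefSeq windows (GRCm38.p6). Python 3.11.15, numpy 2.4.6 and pandas 2.3.3 were used.

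The members, gene lists and markers were chosen with earlier results of these data known. Named were all receptors, the 3 highest genes per kb and those with a mean under 10 of each list (in part), the extreme fibroblast markers, and markers of other cell types with a mean of at least 10.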

Additional observations from a re-analysis of the deposited data

How the results depend on the processing

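The median mean of the 43 receptors was 99.8, and it became 191 when the distinct transcript values of a gene were summed and 91.6 when their median was taken. Transcripts that share exons share most of their reads, so the sum counts such reads more than once. The median receptor lay at percentile 50.2 of all genes per kb, at 35.6 of genes with a mean above 0 and at 45.5 of coding genes. In each case the median was over all 43 receptors, including the 7 listed at 0. The value of 35.6 therefore sets unlike sets side by side. The number of receptors present, 33, was 34 at a minimum of 3, 27 at 50, 36 with no minimum and 28 at 10 per kb. Of the 10 highest receptors per kb, 9 stayed among the highest 10 without division by length, and all 10 did with the length linked to the representative transcript, an alternative chosen after seeing the data. That length put Rxra (2718 per kb) above Nr2f6 (2188 per kb) and changed the share of NR1 from 42.9% to 38.1% and that of NR2 from 39.9% to 46.4%. Markers of other cell types numbered 18 at a minimum of 50, in place of 25. No paired analysis was possible because the table holds a mean over all libraries, and its libraries were not tied to replicate numbers. Leaving out each library in turn, added after seeing the data, was run for the 15 receptors with recovered counts, of which 12 had a mean of at least 10. It left from 10 to 12 of them, since Ppara fell below 10 without library a, b or d and Nr3c2 without d or f. For the 21 receptors with a mean of at least 100 no counts per library were recovered. Means under 10 rest on few reads.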

Other observations

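Across the 15 receptors with recovered counts, libraries a, b and d stood apart from libraries c, e and f in 7 genes, in the sense that all values of the former lay on the same side of all values of the latter. The remaining 8 genes were ordered otherwise or had ties. The same split was found in 30.2% of all 5376 genes with a mean in the same range and exactly 1 set of counts, with c, e and f higher in 14.6% and a, b and d higher in 15.6%. The split was noticed in the values of these same 15 receptors, so their count is not an independent comparison with that share. The libraries were not tied to a genotype, and no test was made.

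In 3 of the 7 genes libraries c, e and f were higher. Nr0b2 had 0 reads in a, b and d, 27 in c, 28 in e and 31 in f. Nr1h4 had 3 reads in a, 0 in b, 33 in c, 5 in d, 18 in e and 28 in f. Nr1i2 had 1 read in a, 6 in b, 9 in c, 0 in d, 11 in e and 10 in f. After normalization b and c of Nr1i2 differed by only 3.05.

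In the other 4 genes libraries a, b and d were higher. Esr1 had 105 reads in a, 105 in b, 50 in c, 98 in d, 33 in e and 43 in f. Ppara had 19 reads in a, 25 in b, 2 in c, 16 in d, 1 in e and 4 in f. Nr1h3 had 83 reads in a, 67 in b, 47 in c, 66 in d, 26 in e and 52 in f. After normalization b and f of Nr1h3 differed by only 6.51, and f (57.2) lay nearer to b (63.7) than to e (27.8). Nr4a3 had 62 reads in a, 50 in b, 17 in c, 27 in d, 25 in e and 14 in f, and after normalization d and e differed by only 0.632.

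Nr3c2 followed another order, with 2 reads in a, 0 in b, 15 in c, 16 in d, 12 in e and 18 in f.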
